A study of Arabidopsis thaliana x Arabidopsis arenosa with 4 samples.

Results

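The 9 cellulose synthase genes CESA1 to CESA9 of Arabidopsis were followed in developing fruits from crosses between Arabidopsis thaliana and Arabidopsis arenosa. They were chosen by gene code, with earlier results of these data known, in 3 classes set by the wall they serve. CESA4, CESA7 and CESA8 form the secondary wall class, CESA1, CESA3 and CESA6 the primary wall class, and CESA2, CESA5 and CESA9 the seed coat class. Of these 9 genes, 8 were among the 14687 genes listed in all 3 hybrid libraries, out of 16610 listed in any. CESA9 (AT2G21770) had no line in the tables used here and was not analysed further, so the seed coat class was measured through CESA2 and CESA5.

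RNA came from whole siliques, the developing pods and the seeds in them, harvested 4 days after pollination. The 3 F1 hybrids, made by hand pollination of emasculated flowers, joined a tetraploid A. thaliana parent of ecotype C24, Ler or Col-0 with a tetraploid A. arenosa parent, and are called the C24, Ler and Col hybrids. In such a fruit the pod and the seed coats have the genotype of the plant that was pollinated, and the embryo and endosperm are hybrid. Which parent gave the pollen is not stated in the labels, so a hybrid's name stands here for its whole silique library, in which these tissues were not separated. The other group was Allo733, an allotetraploid line of both species in generation F8, whose label gives Ler as its A. thaliana ecotype. Each of the 4 groups was 1 library of poly(A) RNA from plants grown at 22 °C, so differences between groups have no replicate check and no test. Expression is in RPKM, reads per transcript length and mapped reads, which allows levels of different genes to be compared per length. For each hybrid the total and the part carried by each parental allele were given. Allo733 values were given only for selected transcripts.

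Cellulose is spun into the wall by complexes in the plasma membrane, in which different CESA proteins sit side by side. In Arabidopsis, CESA1, CESA3 and the interchangeable group of CESA6, CESA2, CESA5 and CESA9 make cellulose of the primary wall of growing cells. CESA4, CESA7 and CESA8 are all required for the secondary wall of xylem vessels and fibres, and their mutants have collapsed xylem. CESA2, CESA5 and CESA9 also build wall thickenings in the epidermis of the seed coat, and CESA5 makes cellulose of the seed mucilage. In fruits, secondary walls form in the vascular bundles and in the lignified valve layer and margin that open the ripe pod.

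All of these proteins share a QxxRW motif in the catalytic domain, where the growing glucan chain is bound. The codons of this motif are shown, with the flanking bases, because they show how alike the members are at a conserved site whose RNA was being counted. Capitals mark the codons of the motif. The sequences are coding strand, from the RefSeq TAIR10.1 reference, and each gene had 1 in-frame match.
CESA4: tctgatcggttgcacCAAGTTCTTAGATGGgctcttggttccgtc
CESA7: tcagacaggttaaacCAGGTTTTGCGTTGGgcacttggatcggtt
CESA8: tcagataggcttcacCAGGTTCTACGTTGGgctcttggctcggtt
CESA1: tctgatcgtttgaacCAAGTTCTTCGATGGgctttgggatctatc
CESA3: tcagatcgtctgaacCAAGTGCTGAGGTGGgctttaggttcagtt
CESA6: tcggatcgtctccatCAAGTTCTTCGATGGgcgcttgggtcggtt
CESA2: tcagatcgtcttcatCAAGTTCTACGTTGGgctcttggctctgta
CESA5: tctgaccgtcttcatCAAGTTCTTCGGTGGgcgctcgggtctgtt
CESA9: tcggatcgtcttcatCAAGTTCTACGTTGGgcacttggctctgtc

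Over the whole coding sequence the secondary wall genes had the lowest identity to a closest relative. The primary wall gene CESA3 was nearly as distinct, with 71.9% identical bases to CESA1. The closest relative of CESA4 was CESA8, with 71.2% identical bases, and that of CESA7 was CESA9, with 71.4%. Identical runs with any relative reached 26 bases for CESA4, 24 for CESA7 and 23 for CESA8. CESA5 and CESA6 were 86.0% identical with a run of 50 bases, CESA2 and CESA9 84.7% with a run of 41, and CESA1 and CESA10 84.1% with a run of 38. Read length and the treatment of reads with several matches are not known here, so values within these 3 close pairs are uncertain where reads could be split.

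CESA4 lies at chr5:17714390-17719723 on the plus strand of TAIR10.1, with 12 exons. CESA7 at chr5:5736630-5741500 and CESA8 at chr4:10312624-10316886 lie on the minus strand and also have 12 exons. The primary wall genes CESA1 (chr4:15640490-15646844) and CESA3 (chr5:1530132-1535558) lie on the minus strand with 14 and 15 exons, and CESA6 (chr5:25881033-25886728) on the plus strand with 13. CESA2 (chr4:18296388-18302192), CESA5 (chr5:3072870-3078416) and CESA9 (chr2:9284391-9289744) lie on the plus strand, each with 13 exons. The 3 secondary wall genes therefore lie apart, on chromosomes 4 and 5.

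The 3 hybrid tables listed 15479 (C24), 15935 (Ler) and 15613 (Col) genes, with summed RPKM of 710281 to 762595 and no total below 2.00 RPKM. Read depth is unknown. A. arenosa RNA made up 4.67% to 6.62% of summed RPKM. Markers of fruit tissue were present: the phloem gene SUC2 had 142, 159 and 137 RPKM in C24, Ler and Col siliques, and 4 of 4 phloem, 5 of 5 epidermis and 7 of 7 xylem genes of the lists used were listed in each. Of the seed markers, STK, a regulator of ovule and seed coat identity, had 30.8, 38.3 and 44.0 RPKM, whereas 3 other inner seed coat genes and 5 endosperm and embryo genes were not listed.

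The secondary wall genes were many times higher in the C24 hybrid than in the other hybrids. CESA4 (AT5G44030) had 168 RPKM in the C24 hybrid, 23.9 in the Ler hybrid and 20.9 in the Col hybrid. CESA7 (AT5G17420) had 120.0, 17.2 and 17.7 RPKM in the same hybrids. CESA8 (AT4G18780) had 128, 17.3 and 20.2 RPKM. In each gene the C24 library stood alone, and the Ler and Col libraries lay close together. As ratios of RPKM, the C24 hybrid exceeded the Ler hybrid 7.04-fold for CESA4, 7.0-fold for CESA7 and 7.39-fold for CESA8. It exceeded the Col hybrid 8.06-fold, 6.77-fold and 6.32-fold in the same gene order. In bulk tissue, fewer cells of a type and less RNA per cell cannot be told apart.

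**Figure D1:**
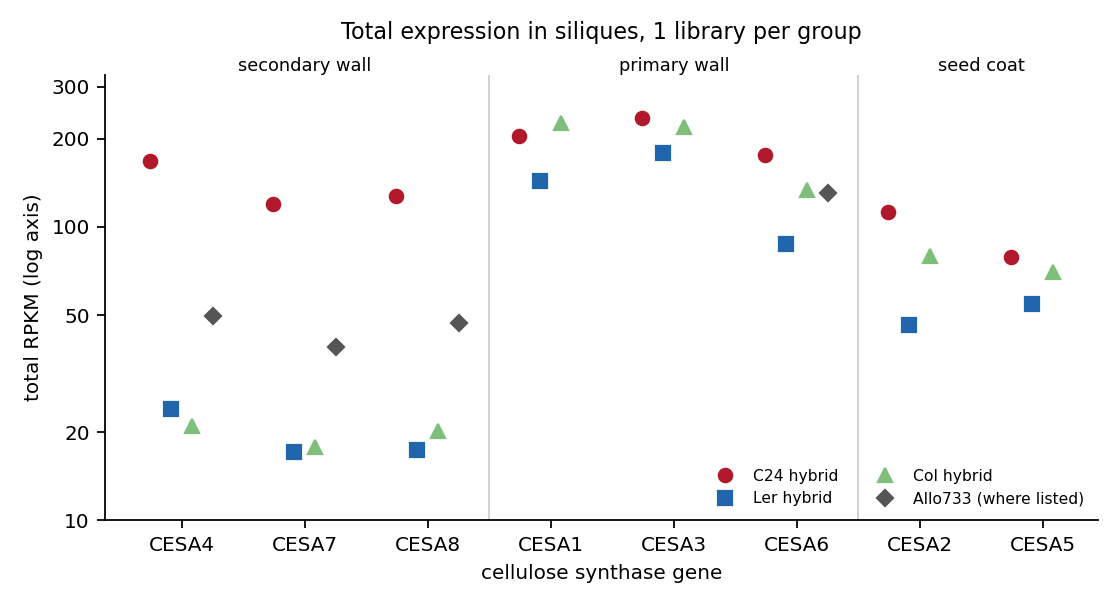
Total RPKM (log axis) of the 8 listed cellulose synthase genes in C24, Ler and Col siliques and, where listed, in Allo733; each point is 1 library. The C24 points of CESA4, CESA7 and CESA8 lie between 120.0 and 168 RPKM, the Ler and Col points between 17.2 and 23.9, and the Allo733 points between 38.9 and 49.9.

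The differences were also computed as log2 of RPKM plus 0.1, centred on each library's median gene, with a gene called high in a hybrid when it was at least 1 log2 unit above both others. CESA4 was 2.97 log2 units higher in the C24 hybrid than in the Ler hybrid and 3.10 higher than in the Col hybrid. CESA7 was 2.96 and 2.85 higher, and CESA8 3.04 and 2.75 higher. By this rule 3 of 8 cellulose synthase genes were high in the C24 hybrid, against 2.10% of all genes (309 of 14687). These genes, and the gene lists used below, were chosen with earlier results of these data known. Such counts therefore describe the genes and are no test of enrichment. Set against the mean of the Ler and Col hybrids, the C24 difference was 3.04 for CESA4, 2.90 for CESA7 and 2.89 for CESA8. Among all 14687 genes, 21 had a larger difference than CESA4, 32 than CESA7 and 34 than CESA8. The median of all genes was -0.02, with 95% of them between -0.96 and 1.19.

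No cellulose synthase gene was low in the C24 hybrid by this rule (1.09% of all genes), and none was high or low in the Ler hybrid (1.13% and 1.39%) or the Col hybrid (0.606% and 0.926%). Between the Ler and Col hybrids the secondary wall genes differed by 0.13 log2 units for CESA4, -0.11 for CESA7 and -0.29 for CESA8, as Ler minus Col. None of the 8 genes differed by 1 unit between these hybrids, where 3.02% of all genes were higher and 2.92% lower in the Ler hybrid.

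**Figure D2:**
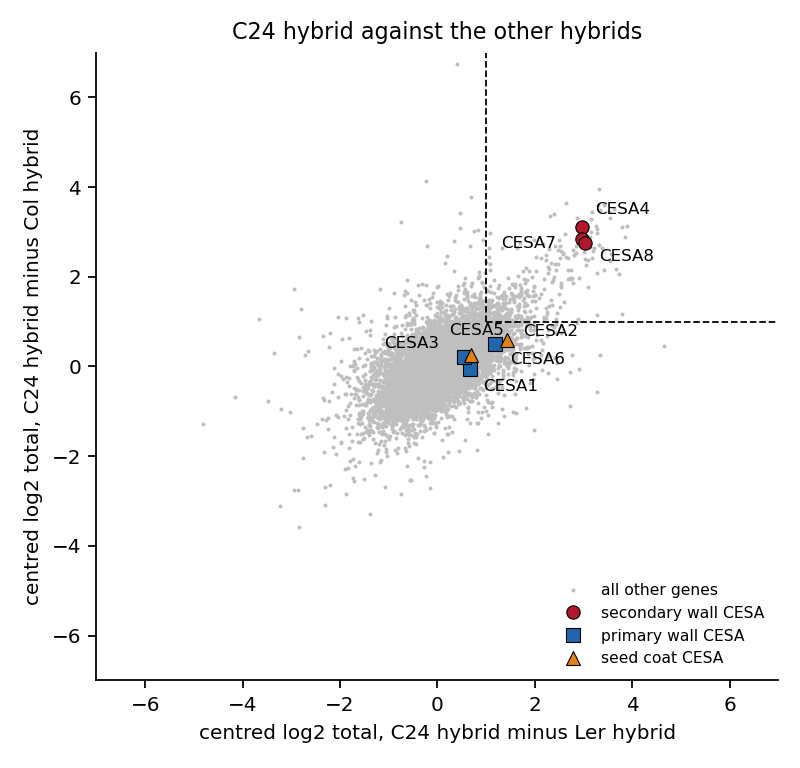
Centred log2 total of the C24 hybrid minus the Ler hybrid (horizontal) and minus the Col hybrid (vertical) for 14687 genes; each point is 1 gene, and the dashed lines bound the region 1 log2 unit above both other hybrids. CESA4, CESA7 and CESA8 lie together near 3 on both axes, and the other 5 cellulose synthase genes lie outside the bounded region.

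The primary wall genes were among the higher values of the family in all hybrids. CESA1 (AT4G32410), a core subunit of the primary wall complex, had 203, 143 and 226 RPKM in C24, Ler and Col siliques. CESA3 (AT5G05170), the other core subunit, had 236, 179 and 218 RPKM. CESA6 (AT5G64740), the main holder of the interchangeable position, had 176, 87.1 and 134 RPKM. For each gene the Ler hybrid was the lowest, and the C24 hybrid was the highest for CESA3 and CESA6 but not for CESA1. On the centred log2 scale the C24 hybrid minus the Ler hybrid came to 0.67 for CESA1, 0.56 for CESA3 and 1.18 for CESA6. The C24 hybrid minus the Col hybrid came to -0.06, 0.21 and 0.49, so none of the 3 genes passed 1 unit against both.

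Of the seed coat genes, CESA2 (AT4G39350) had 112, 46.4 and 79.8 RPKM in C24, Ler and Col siliques, and CESA5 (AT5G09870) had 78.7, 54.6 and 70.2 RPKM. Both were highest in the C24 hybrid and lowest in the Ler hybrid. CESA2 was 1.43 log2 units higher in the C24 hybrid than in the Ler hybrid and 0.59 higher than in the Col hybrid, and CESA5 was 0.69 and 0.26 higher. Counting the pair of C24 and Ler hybrids alone, 5 of 8 genes were higher by at least 1 unit in the C24 hybrid (CESA2, CESA4, CESA6, CESA7 and CESA8), against 5.20% of all genes. For the C24 and Col hybrids these were 3 of 8 (CESA4, CESA7 and CESA8), against 4.11%. No member was lower in the C24 hybrid by 1 unit in either pair, against 3.42% and 2.87% of all genes. CESA10, a close relative of CESA1 outside the 9 genes, had 16.2, 10.3 and 15.0 RPKM.

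Ranked by total RPKM, the order of the genes changed with the hybrid. In the C24 hybrid CESA4 stood at 168 RPKM, close to CESA6 at 176, and CESA8 and CESA7 stood above CESA2. In the Ler and Col hybrids CESA4, CESA8 and CESA7 were the 3 lowest of the 8 genes, at or below 23.9 RPKM, whereas the next gene, CESA2 in the Ler hybrid and CESA5 in the Col hybrid, had 46.4 and 70.2 RPKM. With 1 library per hybrid, the order of close neighbours such as CESA7, CESA8 and CESA4 in the Ler hybrid has no error attached. Over the 3 hybrids, the SD of the centred log2 total was 1.75 for CESA4, 1.68 for CESA7 and 1.68 for CESA8, larger than in 99.7%, 99.6% and 99.6% of all genes. It was 0.28 for CESA3, 0.35 for CESA5, 0.40 for CESA1, 0.59 for CESA6 and 0.72 for CESA2, beside a median of 0.25 over all genes.

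Summed by class, the secondary wall genes had 416 RPKM in the C24 hybrid, 58.4 in the Ler hybrid and 58.9 in the Col hybrid. Primary wall genes summed to 616, 409 and 579 RPKM, and CESA2 with CESA5 to 191, 101 and 150.0 RPKM. The secondary wall class therefore made up 34.0% of the RPKM of the 8 genes in the C24 hybrid, 10.3% in the Ler hybrid and 7.47% in the Col hybrid. Because this share is taken within a library, it needs no scaling between libraries. The mean log2 total of the secondary wall genes minus that of the primary wall genes was -0.57 in the C24 hybrid, -2.76 in the Ler hybrid and -3.26 in the Col hybrid. Against CESA2 and CESA5 the secondary wall mean was higher in the C24 hybrid, by 0.55 log2 units, and lower in the Ler and Col hybrids, with differences of -1.38 and -1.93. Primary minus seed coat was 1.12, 1.37 and 1.33 log2 units, a narrow range by comparison.

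Within the secondary wall class the proportions differed little between libraries while the level changed several-fold. CESA4 over CESA7, as a ratio of RPKM, was 1.40 in the C24 hybrid, 1.39 in the Ler hybrid, 1.18 in the Col hybrid and 1.28 in Allo733. CESA8 over CESA7 was 1.07, 1.01, 1.14 and 1.21 in the same libraries. Ratios within the primary wall class moved somewhat more, with CESA1 over CESA3 at 0.862, 0.797 and 1.04 and CESA6 over CESA3 at 0.748, 0.486 and 0.614 in C24, Ler and Col siliques. These are ratios of RNA, and protein was not measured.

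Of 13 genes for proteins that work with the complex, 12 were listed in all hybrids and 2 were high in the C24 hybrid, CTL2 and COBL4. The chitinase-like gene CTL2, needed for secondary wall cellulose, had 271, 33.2 and 48.3 RPKM in C24, Ler and Col siliques. COBL4 (IRX6), a GPI-anchored COBRA-family protein of secondary walls, had 115, 9.27 and 14.3 RPKM and was named after its values were seen. TED6 and TED7, membrane proteins of which TED6 binds CESA7, had 67.6 and 23.4 RPKM in the C24 hybrid, 39.9 and 18.6 in the Ler hybrid, and 28.3 and 9.61 in the Col hybrid; they were also named after their values were seen and were not called. Among the relatives of CTL2 and COBL4 that act in primary walls, CTL1 had 935, 566 and 716 RPKM and COB had 173, 109 and 139 RPKM, and neither was called. The endoglucanase gene KOR1, whose protein acts in both walls, had 287, 173 and 198 RPKM. The median C24 difference from the mean of the other hybrids was 0.74 log2 units over the 12 partners, beside 0.92 over the 8 cellulose synthases and -0.02 over all genes. Of the 6 CSLD genes, which encode cellulose synthase-like proteins, 3 were listed, with a median of 0.10 and no call.

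Of 20 regulators of the secondary wall, 5 were listed in all hybrids, and 4 of these were high in the C24 hybrid. MYB46, a master switch that binds promoters of secondary wall genes, had 28.7, 3.47 and 2.72 RPKM in C24, Ler and Col siliques. NST1, a NAC factor upstream of MYB46 that acts in fibres and in pod dehiscence zones, had 35.1, 12.5 and 9.13 RPKM. The homeobox gene KNAT7 had 80.1, 35.8 and 28.4 RPKM. These genes and SND2, named after its values were seen at 22.4, 3.81 and 5.30 RPKM, were the genes called. VNI2, a repressor of vessel formation, had 16.1, 21.2 and 15.05 RPKM and was not called. The remaining 15 regulators were missing from at least 1 table, where a total under 2 RPKM is not listed.

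Genes for the other polymers of the secondary wall gave different counts. Of the 9 xylan backbone genes, 8 were high in the C24 hybrid, with a median C24 difference of 2.68 log2 units. PARVUS had 119, 25.8 and 34.6 RPKM, IRX15L had 120.1, 13.8 and 30.0, and IRX10 had 80.5, 13.0 and 14.2 in C24, Ler and Col siliques. IRX10L, the 1 xylan gene not called, had 37.1, 24.8 and 25.8 RPKM and was named for that reason. Of the 12 monolignol genes, which make the precursors of lignin, CCOAOMT1 and CAD4 were high in the C24 hybrid, with CAD4 named after its values were seen. CCOAOMT1 had 359.5 RPKM in the C24 hybrid, 199 in the Ler hybrid and 155 in the Col hybrid. C4H had 272, 165 and 238 RPKM in the same hybrids, PAL1 212, 121 and 124, and HCT 172, 105 and 86.3, and none of them was called. F5H1, named after its values were seen, had 25.9, 27.6 and 47.0 RPKM, a C24 difference of -0.35. The monolignol median was 0.95 log2 units, and 11 of the 12 genes had a difference above 0. Seed coat mucilage genes had a median of 0.16, with 1 of 15 called (PMEI6, named after its values were seen), and the 10 reference genes a median of -0.13 with none called.

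**Figure D3:**
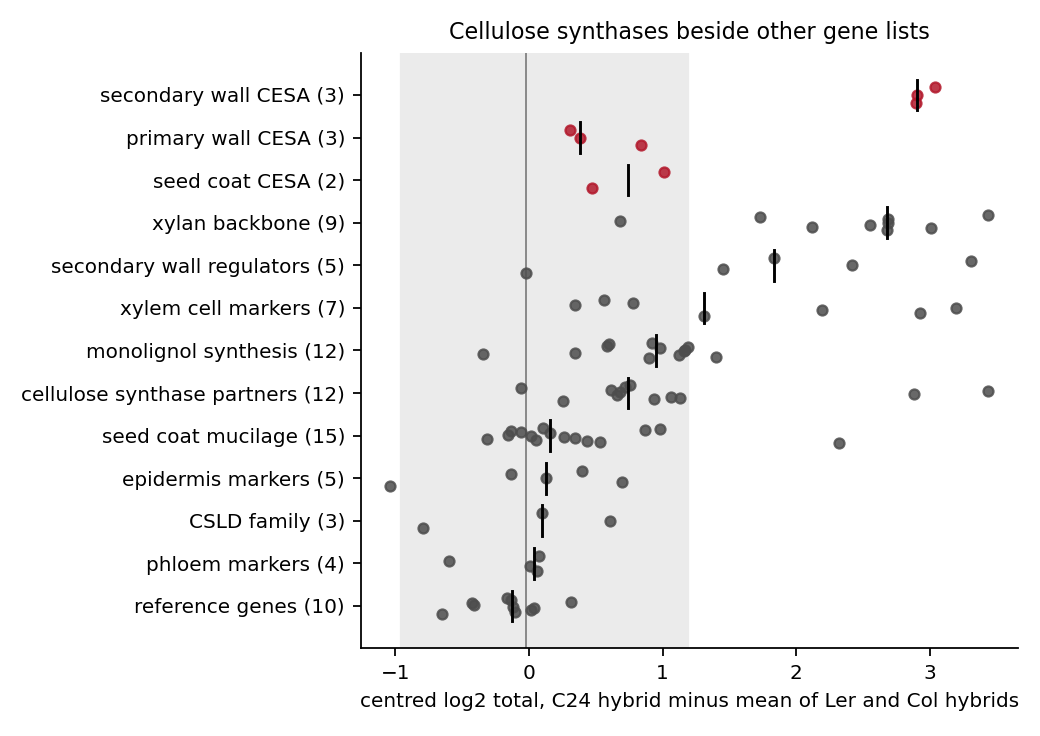
Centred log2 total of the C24 hybrid minus the mean of the Ler and Col hybrids, 1 point per gene (number in brackets), for the 3 cellulose synthase classes and 10 gene lists; black bars are medians, the grey band holds 95% of all genes and the grey line is their median. The secondary wall genes lie between 2.89 and 3.04, and the other cellulose synthases between 0.31 and 1.01.

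Markers of xylem cells moved unevenly beside the secondary wall genes. Their summed RPKM was 1300 in the C24 hybrid, 341 in the Ler hybrid and 452 in the Col hybrid, and 3 of 7 were high in the C24 hybrid. LAC4, a laccase that polymerises lignin, had 351, 40.9 and 42.8 RPKM, and FLA11, a fasciclin-like protein of secondary walls, had 297, 35.7 and 51.0. Also called was LAC17, named after its values were seen, with 111, 23.4 and 29.9 RPKM. The enzymes that mark the death of vessel cells differed less: the cysteine peptidase genes XCP1 and XCP2 had 25.2 and 90.1 RPKM in the C24 hybrid, 15.9 and 51.1 in the Ler hybrid, and 21.7 and 64.5 in the Col hybrid. The ribonuclease gene RNS3 had 30.2, 38.8 and 17.4 RPKM. FLA12 had 396, 135 and 225 RPKM and was not called. Since no total below 2.00 RPKM was listed, no listed marker could be at 0 in any hybrid. Phloem markers had a median difference of 0.04 log2 units, from -0.60 for APL to 0.08 for SUC2. APL had 3.71, 7.36 and 5.21 RPKM in C24, Ler and Col siliques and was not called. Epidermis markers had a median of 0.13 but went both ways, from -1.04 for PDF1, a gene of the outer cell layer, to 0.69 for CUT1, a wax synthesis gene. None of the 5 epidermis genes was high in the C24 hybrid, but ATML1, an epidermal regulator, was low in the Ler hybrid and PDF1 was high in the Col hybrid. ATML1 had 39.2, 20.1 and 52.7 RPKM and PDF1 25.1, 40.6 and 78.1 RPKM in C24, Ler and Col siliques. The part of tissue makeup in the result was not tested.

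The genes whose profile over the 3 hybrids came nearest to the mean of CESA4, CESA7 and CESA8 were ranked by Euclidean distance in log2 units, among 12522 genes with a mean of at least 5 RPKM. The 10 nearest, at 0.08 to 0.21, were LAC12, TBL33, LAC10, CML41, GXM3, QRT3, arpc2b, LAC4, AT4G08555 and IQD13. LAC12, LAC10 and LAC4 encode laccases, and LAC12 had 62.8 RPKM in the C24 hybrid, 9.15 in the Ler hybrid and 9.69 in the Col hybrid. GXM3 encodes a glucuronoxylan methyltransferase, and it had 28.7, 4.39 and 4.69 RPKM. CESA7 lay 0.04, CESA8 0.15 and CESA4 0.17 from their own mean, which they themselves set, so these distances are no yardstick. In all, 44 genes lay within 0.5, where the median gene lay at 2.44. With a pseudocount of 1, 7 of the 10 nearest were kept. Near the listing floor of 2.00 RPKM were arpc2b (2.53 in the Ler hybrid, 2.18 in the Col hybrid) and AT4G08555 (2.11 and 2.38). These genes, CML41 (3.82 and 4.10), GXM3 and QRT3 (3.32 and 2.95) were below 5 RPKM in both of these hybrids. They passed the minimum mean through the C24 hybrid. With no minimum level the 10 nearest were the same. A profile of 3 libraries is short, and likeness in it describes these libraries only.

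Since the 3 genes moved together, the 250 bases before their annotated transcript starts were searched on both strands for a pair of elements known from secondary wall promoters. SMRE, the element bound by MYB46, was searched in 8 forms, which begin with ACC, go on with A or T, then A, then A or C, and end in C or T. TERE, the tracheary element regulating element, was searched by its published consensus. The windows are chr5:17714140-17714389 on the plus strand for CESA4, chr5:5741501-5741750 on the minus strand for CESA7 and chr4:10316887-10317136 on the minus strand for CESA8, from TAIR10.1. Capitals mark matches, and each sequence ends at the base before the transcript start.
CESA4 promoter: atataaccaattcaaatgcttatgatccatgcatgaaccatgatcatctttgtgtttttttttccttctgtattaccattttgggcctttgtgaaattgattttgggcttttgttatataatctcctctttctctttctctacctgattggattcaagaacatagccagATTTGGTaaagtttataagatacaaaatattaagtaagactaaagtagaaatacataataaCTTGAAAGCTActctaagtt
CESA7 promoter: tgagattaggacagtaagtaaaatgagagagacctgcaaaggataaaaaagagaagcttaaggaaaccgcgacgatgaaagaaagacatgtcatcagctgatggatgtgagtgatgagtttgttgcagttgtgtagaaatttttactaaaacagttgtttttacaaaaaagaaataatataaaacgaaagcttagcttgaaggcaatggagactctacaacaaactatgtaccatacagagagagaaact
CESA8 promoter: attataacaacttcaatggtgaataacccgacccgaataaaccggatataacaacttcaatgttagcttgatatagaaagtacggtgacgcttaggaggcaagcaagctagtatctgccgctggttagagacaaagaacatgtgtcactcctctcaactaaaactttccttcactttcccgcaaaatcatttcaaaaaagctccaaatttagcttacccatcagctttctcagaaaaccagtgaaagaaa

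The CESA4 window held 1 SMRE match on the reverse strand, 81 to 75 bases before the start, and 1 TERE match (CTTGAAAGCTA) 20 to 10 bases before it. The matches did not overlap. The CESA7 and CESA8 windows held neither element, which says only that these letters were not in these windows. Among the other members, CESA1, CESA5 and CESA9 had 1 SMRE match each, and CESA2, CESA3 and CESA6 had none of either. Of 27406 promoters of the same length, 29.4% held an SMRE match and 0.369% (101) a TERE match. The SMRE matches were thus not limited to the secondary wall class.

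The next comparison was between the parental alleles. As in the tables as a whole, the A. thaliana allele carried most of the RNA of each member. These are values of whole siliques, in which the alleles of hybrid tissue and the RNA of the pollinated parent's tissue cannot be told apart. CESA4 had 25.5 RPKM from the A. arenosa allele and 143 RPKM from the A. thaliana allele in the C24 hybrid. In the Ler hybrid it had 4.11 and 19.8 RPKM from the same alleles, and in the Col hybrid 3.91 and 17.0. The A. arenosa share of CESA4 was 15.1%, 17.2% and 18.7% in C24, Ler and Col siliques (17.0% ± 1.81, SD, n = 3 hybrids), beside medians over 14660 genes of 5.41%, 3.77% and 4.79%. CESA4 had the largest mean share of the 8 genes, and its share lay above that of 89.2%, 95.5% and 91.6% of all genes in C24, Ler and Col siliques.

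For CESA8 the share was 7.92%, 11.8% and 16.3% (12.0% ± 4.19, SD, n = 3). CESA7 was nearer to the typical gene, with 4.62%, 6.09% and 6.09% (5.60% ± 0.850). The shares of CESA4 and CESA7 did not overlap over the 3 hybrids, whereas those of CESA8 overlapped with CESA4 between different hybrids. Within each hybrid the share of CESA4 was above that of CESA8, and these differences were not tested. Among the primary wall genes CESA6 had 7.82%, 15.6% and 21.6% (15.0% ± 6.89), CESA3 6.51%, 5.19% and 8.50% (6.73% ± 1.67), and CESA1 2.37%, 2.66% and 3.43% (2.82% ± 0.546). Of the seed coat genes, CESA2 had 9.55%, 3.49% and 3.44% (5.50% ± 3.51). CESA5 had the lowest share of the family, 0.47%, 1.07% and 1.37% (0.970% ± 0.454). Summed by class, the A. arenosa share of the secondary wall genes was 9.88%, 12.3% and 14.1%, that of the primary wall genes 5.52%, 6.52% and 9.54%, and that of CESA2 with CESA5 5.81%, 2.18% and 2.47%.

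**Figure D4:**
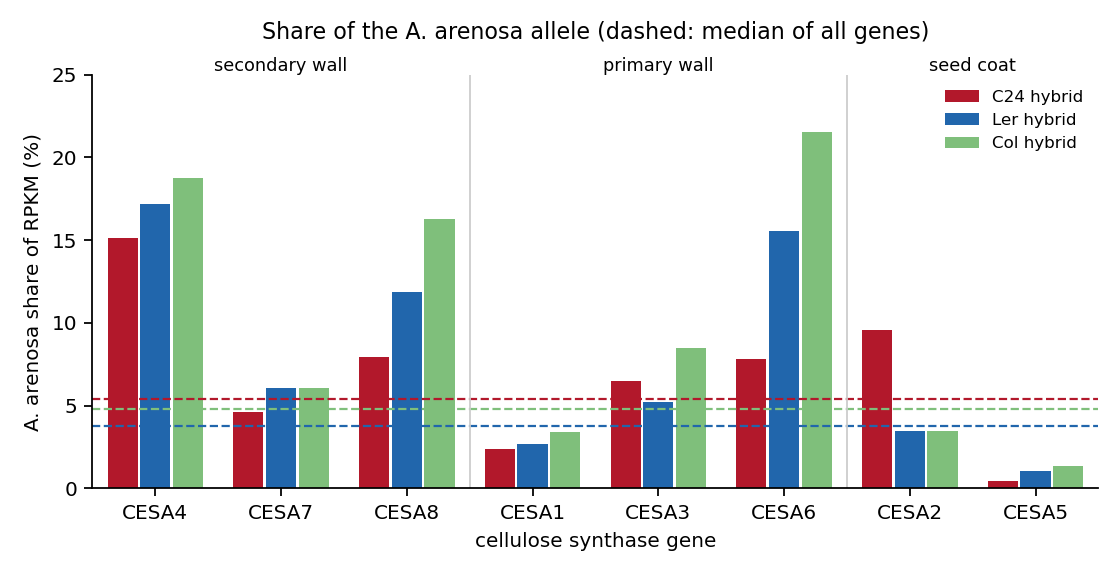
A. arenosa share of allele RPKM, in percent, for each cellulose synthase gene; bars are single libraries of the C24, Ler and Col hybrids, and dashed lines of the same colours are the medians of 14660 genes. CESA4 lies above the median line in every hybrid (15.1% to 18.7%) and CESA5 below it (0.47% to 1.37%).

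To ask which members departed from the typical allelic ratio by more than the spread between hybrids, log2 of the A. arenosa over the A. thaliana value was centred on the median gene of each hybrid and tested over the 3 hybrids. CESA4 lay 1.84 ± 0.31 (SE) log2 units above the typical gene, in 3 of 3 hybrids (limma, adjusted p = 0.0383). It was the only member above, 1 of 8, where 7.97% of all genes were. CESA5 lay below, at -2.46 ± 0.53, also in 3 of 3 hybrids (limma, adjusted p = 0.0492). It was the only member below, where 3.36% of all genes were. CESA5 and CESA6 form the most alike pair in sequence, and their part in each other's values was not tested. With any 1 hybrid left out, no gene of the whole table was called by limma, so these fits on 2 libraries say nothing about the stability of the calls. The values were then 1.68 to 2.03 for CESA4 and -2.73 to -1.97 for CESA5. The CESA5 call was also lost with a filter of 5 RPKM (limma, adjusted p = 0.0541) and with transcripts summed per gene (limma, adjusted p = 0.0527).

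CESA6 (1.50 ± 0.45) and CESA8 (1.22 ± 0.38) were above the typical gene in 3 of 3 hybrids without passing, with limma adjusted p of 0.0867 and 0.0922. CESA1 was at -0.98 ± 0.37 in 3 of 3 hybrids (limma, adjusted p = 0.136). CESA3 was at 0.30 ± 0.30, CESA2 at -0.12 ± 0.39 and CESA7 at 0.12 ± 0.34, with limma adjusted p of 0.516, 0.846 and 0.831. For CESA2 and CESA7 the hybrids did not all share a sign. The spread in this test joins ecotype and library.

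Both alleles of the secondary wall genes were higher in the C24 hybrid. The A. arenosa allele of CESA4 was 6.19-fold higher in the C24 hybrid than in the Ler hybrid and 6.51-fold higher than in the Col hybrid, and its A. thaliana allele 7.22-fold and 8.42-fold. For CESA7 the A. arenosa allele had 5.54 RPKM in the C24 hybrid, 1.05 in the Ler hybrid and 1.08 in the Col hybrid, ratios of 5.30 and 5.13 for the C24 hybrid over the others. Its A. thaliana allele had 115, 16.1 and 16.7 RPKM, ratios of 7.11 and 6.87. The A. arenosa allele of CESA8 had 10.12, 2.05 and 3.29 RPKM, ratios of 4.94 and 3.07, and its A. thaliana allele 118, 15.3 and 16.9 RPKM, ratios of 7.72 and 6.96. In all 3 genes the A. thaliana allele showed the larger ratio.

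Among the other members, the order of the hybrids could differ between the alleles. CESA6 had 13.8, 13.6 and 28.9 RPKM from the A. arenosa allele in C24, Ler and Col siliques, with the Col hybrid highest, and 163, 73.6 and 105 RPKM from the A. thaliana allele, with the C24 hybrid highest. CESA5 had 0.374, 0.584 and 0.959 RPKM from the A. arenosa allele, with the C24 hybrid lowest. The A. arenosa allele of CESA2 had 10.7, 1.62 and 2.75 RPKM, so the C24 hybrid was 6.61-fold above the Ler hybrid and 3.90-fold above the Col hybrid. For its A. thaliana allele these ratios were 2.27 and 1.32. Computed on the A. arenosa allele alone, 4 members were high in the C24 hybrid (CESA2, CESA4, CESA7 and CESA8), a rule that called 7.58% of all genes.

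**Figure D5:**
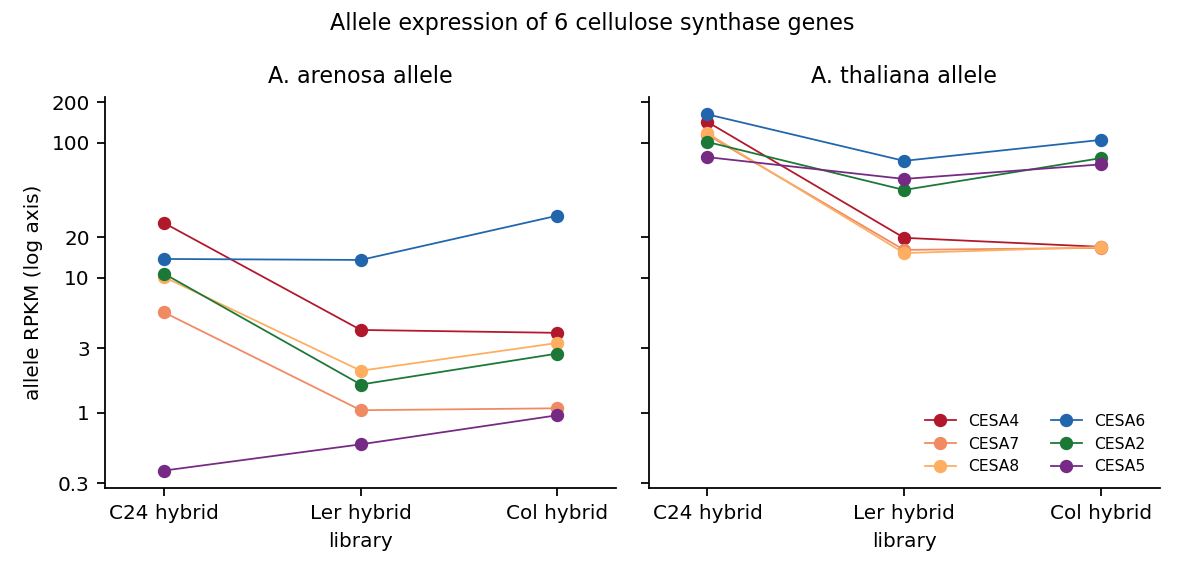
Allele RPKM (log axis) of 6 cellulose synthase genes in C24, Ler and Col siliques, for the A. arenosa allele (left) and the A. thaliana allele (right); each point is 1 library and lines only join points of 1 gene. CESA4, CESA7 and CESA8 are highest in the C24 hybrid in both panels, whereas the A. arenosa allele of CESA6 is highest in the Col hybrid at 28.9 RPKM.

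When allelic ratios were compared between hybrids, no member lay 2 log2 units above or below both other hybrids. Of all genes, 2.45% were above and 2.48% below in the C24 hybrid, 1.31% and 2.85% in the Ler hybrid, and 3.38% and 4.04% in the Col hybrid. At 1 log2 unit, CESA5, CESA6 and CESA8 were below in the C24 hybrid, as were 8.91% of all genes. For CESA6 the centred log2 ratio was 0.34 in the C24 hybrid, 1.95 in the Ler hybrid and 2.21 in the Col hybrid, and for CESA8 it was 0.36, 1.54 and 1.75.

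The last comparison set each F1 hybrid against Allo733. The F1 pods have the genotype of the pollinated parent, whereas Allo733 is an F8 line of both species. Generation and pod genotype thus differ along with the group and cannot be told apart from it. Its tables covered selected transcripts, 1322 genes for the C24 hybrid, 809 for the Ler hybrid and 791 for the Col hybrid, and the rule of selection is not known here. CESA4, CESA7 and CESA8 were listed in all 3 tables, CESA6 in that of the Ler hybrid, and CESA1, CESA2, CESA3 and CESA5 in none. CESA4 had 168 RPKM in the C24 hybrid, 23.9 in the Ler hybrid and 20.9 in the Col hybrid, against 49.9 in Allo733. CESA7 had 120.0, 17.2 and 17.7 RPKM, against 38.9 in Allo733, and CESA8 had 128, 17.3 and 20.2 RPKM, against 47.1 in Allo733. Allo733 thus lay between the C24 hybrid and the other hybrids for all 3 genes.

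As log2 of hybrid over Allo733, without centring, CESA4 was 1.75 in the C24 hybrid, -1.06 in the Ler hybrid and -1.25 in the Col hybrid. CESA7 was 1.62, -1.18 and -1.13, and CESA8 was 1.44, -1.44 and -1.21. By a rule of 1 log2 unit, the 3 genes were higher in the C24 hybrid than in Allo733, where 31.7% of the genes in that table were higher and 31.4% lower. They were lower in the Ler hybrid, where 28.1% of genes were lower and 29.5% higher, and in the Col hybrid, where 29.1% were lower and 31.9% higher. Calls were thus common among these selected transcripts, and the 3 comparisons share the single Allo733 library. The median gene of each table was itself at -0.57 in the C24 hybrid, -0.39 in the Ler hybrid and -0.25 in the Col hybrid. These are medians of selected transcripts, so centring on them need not remove a difference in scale between libraries. Summed RPKM of the same genes was higher in each hybrid than in Allo733. It was 285565 against 256131 for C24, 255882 against 207958 for Ler and 230209 against 190359 for Col. Centred on these medians, the 3 genes were still higher in the C24 hybrid, at 2.33, 2.19 and 2.01 for CESA4, CESA7 and CESA8. By the same rule after centring, 42.4% of the genes in that comparison were higher. The Ler values became -0.67, -0.79 and -1.05 and the Col values -0.998, -0.88 and -0.96 in the same gene order. Only CESA8 in the Ler hybrid was thus still called lower under this centring. Of all genes compared, 18.4% were then lower in the Ler hybrid and 23.4% in the Col hybrid. The Ler hybrid had 87.1 RPKM of CESA6, against 131 in Allo733, a log2 ratio of -0.58 that was not called. Summed over the secondary wall genes, the C24 hybrid had 416 RPKM, the Ler hybrid 58.4 and the Col hybrid 58.9, against 136 in Allo733. CTL2 had log2 ratios over Allo733 of 1.74, -1.29 and -0.75 in C24, Ler and Col siliques, and LAC4 2.22, -0.88 and -0.82. MYB46 was listed in the C24 table, at 28.7 RPKM in the C24 hybrid against 8.43 in Allo733.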

How the data were processed

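Poly(A) RNA of siliques from 3 F1 hybrids and Allo733 was sequenced, 1 library a group (4 groups in all). The authors deposited RPKM for transcripts, per the file headers, in total and for alleles marked T and A, read here as A. thaliana and A. arenosa, and RPKM of selected transcripts beside Allo733. The submitters' processing notes name TAIR 9. Not given in the sources used here were the mapping tool, the assignment of reads to alleles and the selection rule. Any preference of mapping for the A. thaliana sequence would lower A. arenosa shares, and RPKM depends on the other transcripts of a library. No steps of whole reads were found among low values, so depth is unknown and no counting interval is given.

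Members were matched by gene code, with 1 transcript per gene, preferring those listed in more hybrids and, among these, the highest mean total. From the table of the Col hybrid, 4 repeated header lines were dropped, and 41 transcripts with both alleles at 0 were left out of allele comparisons. Totals were compared as log2(RPKM + 0.1), which understates changes of low genes. Between hybrids they were centred on each library's median, and against Allo733 they were not centred. Calls between groups were rules of size. Allelic ratios were tested with limma 3.58.1 in R 4.3.3, fitting an intercept over the 3 hybrids, with Benjamini-Hochberg adjustment over 14660 genes at 0.05. The variance trend of this fit ran on the mean allelic ratio, not on expression. The limma p-values measure only the spread between these libraries. On simulated data for this comparison, 200 of 14660 genes were shifted. The fit found 6% of those shifted by 1 log2 unit, 90% at 2, and 100% at 3 or 4, and made 5 false calls. Every other simulated gene was set at the typical ratio, with normal noise of the median spread of genes at like expression. Real genes differ in ratio and in spread, so these rates need not hold for the calls made here.

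The members and gene lists were chosen with earlier results of these data known. Named genes were all members, CESA10, up to 4 members of each list with the highest mean, xylem genes and the 10 nearest profiles. The text says where a gene was named after its values were seen. Sequences are from the RefSeq TAIR10.1 reference, in which 16336 of 16610 gene codes were found as protein-coding genes. TAIR10 kept the nuclear assembly of TAIR9, and the deposited tables hold no coordinates. No protein sequences were used, so identity was computed on coding bases. The alternatives tried were a filter of 5 RPKM, a pseudocount of 1, other centrings, a threshold of 2 log2 units, summed transcripts, no variance trend and leaving out each hybrid. Single alleles in place of totals, a variance trend on the total and centred ratios to Allo733 were added after seeing the data. Other software was Biopython 1.88, pandas 2.3.3, numpy 2.4.6, scipy 1.17.1 and matplotlib 3.10.9 in Python 3.11.15.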

Additional observations from a re-analysis of the deposited data

Results flagged for a closer look

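The secondary wall genes differed from Allo733 in opposite directions in the hybrids, 1 library each. As log2 of hybrid over Allo733, without centring, CESA4 was 1.75 in the C24 hybrid, -1.06 in the Ler hybrid and -1.25 in the Col hybrid. CESA7 was 1.62, -1.18 and -1.13, and CESA8 was 1.44, -1.44 and -1.21, in the same hybrids. The difference between the hybrids was not tested, and all of these values share the Allo733 library.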

How the results depend on the processing

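CESA4, CESA7 and CESA8 were called high in the C24 hybrid in total expression under a pseudocount of 1, a filter of 5 RPKM, each centring, 2 log2 units, summed transcripts and either single allele. On the A. arenosa allele CESA2 joined them, and 2 members (CESA5 and CESA6) were lower in the C24 hybrid than in the Col hybrid, where the totals gave 0; of all genes, 18.2% were lower on that allele and 2.87% in the totals. Over all genes the count of 309 of 14687 (2.10%) became 181 of 11250 with the filter (1.61%) and 466 with reference-gene centring (3.17%). It became 77 at 2 log2 units (0.524%) and 1111 of 14660 on the A. arenosa allele (7.58%). Without centring the median gene's C24 difference moved to -0.15, and with reference genes to 0.14. At 2 log2 units the members higher in the C24 hybrid than in the Ler hybrid were 3, not 5. Of all genes, 0.974% (143 of 14687) then were, not 5.20%. Against Allo733, 0 members were called in any hybrid at 2 log2 units, not 3, and the share of all genes at that threshold is not given here. The medians of the Allo733 comparisons are of selected transcripts and need not reflect library scale. Centred on them, 1 member was lower in the Ler hybrid and 0 in the Col hybrid, not 3. Of all genes compared, 18.4% and 23.4% were then lower in these hybrids, and 42.4% were higher in the C24 hybrid. The secondary wall class contrasts kept their direction with a pseudocount of 1. Summing transcripts left their values unchanged, so that run gave no separate check.

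CESA4 was above the typical gene in each full fit over 3 hybrids with centring. Over all genes, 1168 were above and 493 below in the main fit, with its variance trend on the mean ratio. Without a trend these counts were 882 and 799, and with a trend on the total 867 and 827. The number of members below was 4 with a pseudocount of 1 (CESA1, CESA2, CESA3 and CESA5), 0 with the filter and 0 with summed transcripts, not 1; over all genes it was 3502 of 14660, 387 of 11237 and 416 of 14664, not 493 of 14660. Leaving out any hybrid gave 0 above and 0 below (range 0 to 0) by limma, over all genes too, which says nothing about stability, with 3921, 3524 and 4583 genes at an unadjusted limma p under 0.05 without C24, Ler and Col. Without centring, a test of equal alleles, 0 members were above and 8 below (6 and 14463 of 14660 genes), with CESA3 at -3.81, CESA4 at -2.27, CESA6 at -2.61, CESA7 at -3.998 and CESA8 at -2.90, since the typical gene is then no longer at 0. Values near 0 changed sign: with a pseudocount of 1 CESA3 was -0.83 and CESA7 -0.54, with the filter CESA2 was 0.033, and with 1 hybrid left out CESA2 ranged from -0.53 to 0.15 and CESA7 from -0.11 to 0.37; the cause was not tested. CESA7 was negative without Ler and CESA2 positive without Col. Between hybrids, 3 members were called at 1 log2 unit, not 0. With 1 library per group and unknown depth, no error can be put on a difference between groups. No paired analysis was possible because each group holds 1 library.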

Other observations

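Other genes of the secondary wall lists carried A. arenosa shares over a wide range. The genes IRX8 and COBL4 are named here after their values were seen. The regulator KNAT7 had 18.8% in C24 siliques, 19.9% in Ler and 17.8% in Col, close to the values of CESA4. NST1, which acts upstream of MYB46, had 4.73%, 0.984% and 91.8% in the same order, so the Col library stood apart, at a total of 9.13 RPKM. The xylan gene IRX8 had 9.07%, 18.3% and 23.2%. CTL2 had 0.267% in C24 siliques and was listed at 0 for the A. arenosa allele in the other libraries, LAC4 had 0.764%, 1.68% and 2.27%, and XCP2 was listed at 0 for that allele in every library. COBL4 had 1.71%, 13.9% and 23.1%. Values of 0 may come from estimates that failed, and none of these differences was tested.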
